A study of Mus musculus with 282 samples.

Results

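The genes described here are 7 members of the thyroid hormone pathway, namely the handling genes Dio2, Slco1c1 and Crym, the receptors Thra and Thrb, and the response genes Klf9 and Hr. They were taken by gene name from the merged assembly and make up 7 of the 14079 genes and 23 of the 51024 transcripts in the expression table. The data are FPKM values (fragments per kilobase of transcript, scaled between libraries by Cuffnorm at its default settings). They come from the hypothalamus of male mice of the Hybrid Mouse Diversity Panel, all on a high fat diet. Of the 282 columns of the table, a pair of CXB-6/ByJ held the same profile up to a factor of 1.005 (all of 13216 genes lay within 0.1% of it, against 0.984% of genes in the next most alike pair of a strain). They differed by less than sampling noise and were counted as 1 sample, their mean, which left 281 mice. The panel combines recombinant inbred sets, each bred from a C57BL/6 parent and another strain, with classical inbred strains. The 280 mice with a clear strain fell into 99 strains, of which 18 belonged to AXB/BXA (parent A/J), 43 to BXD (DBA/2J), 6 to BXH (C3H/HeJ), 7 to CXB and 25 to the inbred group. CXB derives from the ByJ substrains of C57BL/6 and BALB/c, for which C57BL/6J and BALB/cJ stand in here as related strains. There were 3 mice in 84 strains, 2 mice in 13 and 1 mouse in 2. Every group was male and on the same diet, so no effect of sex or diet could be read, and the labels gave no age. FPKM values carry no read depth, and the depth of each library was not used here. Precision was judged from the spread between mice within strains and the number of mice.

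Thyroxine enters the brain largely through transporters of the barrier and of glia, among them the organic anion transporter encoded by Slco1c1. The type 2 deiodinase encoded by Dio2, in glia and tanycytes, converts it to the active hormone T3, and the protein encoded by Crym binds T3 in the cytosol. T3 acts in the nucleus through receptors encoded by Thra and Thrb, and Klf9 (a zinc finger transcription factor) and Hr (a corepressor that binds nuclear receptors) are established T3 response genes in brain. Klf9 is also a known glucocorticoid response gene.

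The Dio2 and Klf9 promoters are shown because these genes formed the closest pair within strains, and the Thra splice junction because it separates the receptor from a non-hormone-binding form. The windows run from 250 bases before to 50 bases after a RefSeq start site (GRCm38.p6). Dio2 lies at chr12:90738989-90739288 (minus strand) and Klf9 at chr19:23140976-23141275 (plus strand). The capitals mark the cyclic AMP response element TGACGTCA, which begins 95 bases before the Dio2 start and was found on either strand in 1.79% of 32851 promoters of this length. The half-site of the thyroid hormone response element, AGGTCA, was found in 16.3% of these promoters. It was absent from the letters of both windows shown, and the element TGACGTCA was absent from that of Klf9. The RefSeq start of Dio2 (90739038) lies upstream of the start of the deposited transcript (90738438).
Dio2: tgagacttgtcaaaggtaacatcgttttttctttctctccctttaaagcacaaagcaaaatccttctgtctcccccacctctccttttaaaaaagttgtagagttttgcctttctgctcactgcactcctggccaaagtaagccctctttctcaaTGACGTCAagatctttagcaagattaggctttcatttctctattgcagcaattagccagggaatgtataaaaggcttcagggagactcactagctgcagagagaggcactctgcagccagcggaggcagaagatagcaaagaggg
Klf9: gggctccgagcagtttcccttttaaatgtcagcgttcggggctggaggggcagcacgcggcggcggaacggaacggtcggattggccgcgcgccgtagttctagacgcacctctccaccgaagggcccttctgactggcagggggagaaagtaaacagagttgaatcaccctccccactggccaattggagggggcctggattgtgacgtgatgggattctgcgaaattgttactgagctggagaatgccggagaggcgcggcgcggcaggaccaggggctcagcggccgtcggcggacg

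The Thrb window at its first start site, chr14:17660710-17661009 (plus strand), held 1 AGGTCA, 184 bases before the start, whereas that of Slco1c1 held neither motif. Windows for Crym, Thra and Hr were not used here. Thra makes the hormone receptor TRα1 (410 residues) and the splice form TRα2 (492 residues), which does not bind T3. Both share coding sequence up to chr11:98764376-98764405 (plus strand, GRCm38, GENCODE M21) and then diverge. In the lines below the shared bases are in lower case and the 30 bases particular to each form in capitals, which begin at 98764406 for TRα1 and at 98768157 for TRα2.
TRα1: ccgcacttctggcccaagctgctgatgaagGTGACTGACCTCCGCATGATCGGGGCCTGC
TRα2: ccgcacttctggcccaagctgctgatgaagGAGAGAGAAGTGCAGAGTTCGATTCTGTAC

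Some libraries stood apart from the rest. In 18 mice, unannotated isoforms held between 9.79% and 11.2% of the transcript FPKM, against 20.3% to 24.1% in the other 263 mice, and the ranges did not overlap (a limit of 15%, set after seeing the data, separates them). They were all the mice of BXD-9/TyJ, BXD62, BXD70, BXD75, BXD85 and BXHA1, and 1 of the 3 mice of BXD87. Because 6 strains consisted of such libraries only, their strain and their library type cannot be told apart, and results are given with and without the 18 (262 mice of 93 strains). One BXD-12/TyJ mouse had an FPKM sum of 792801, against 322047 to 463433 in all others, of which a CXB-3/ByJ mouse was highest. Marker levels of neighbouring tissue also varied, with summed FPKM from 0.589 to 16462 for 6 anterior pituitary genes, from 3.50 to 61.5 for 4 choroid plexus genes and from 17.4 to 380.9 for 5 thalamus genes, whereas the 7 hypothalamus genes summed to 829.5 or more in every mouse. In bulk tissue, fewer cells of a type and less RNA per cell cannot be told apart.

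The first question was whether the level of each gene differed between strains. A gene was called when the adjusted p-value of limma's F test over strains (Benjamini-Hochberg over all genes) was under 0.05, and 6 of the 7 genes were called, beside 74.9% of all genes. The number was also 6 without the 18 mice, beside 70.4% of all genes. The share called was thus near that of all genes. The strain share, the fraction of variance in log2(FPKM + 1) that lay between strains, exceeded the median of all genes (0.221) for every gene but Crym.

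Among the handling genes, Dio2 was found at 1.39 to 5.50 FPKM over the 280 mice, with a median of 2.83 and no mouse at 0. Strain means ran from 1.47 in BXD-19/TyJ (1.39, 1.49 and 1.53) to 4.67 in LG/J (3.68, 4.90 and 5.44), a 3.18-fold span. These strains were picked as the ends of the order, so the distance between their mice is no test. AXB-6/PgnJ (1.61 and 1.63) was next to the bottom and C3H/HeJ (3.81, 4.24 and 5.31) next to the top. The strain share was 0.336 (adjusted p = 2.7e-07, limma). The only deposited Dio2 transcript, fitted on its own, was not called (strain share 0.049, adjusted p = 0.29, limma).

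Slco1c1 ranged from 6.84 to 18.3 FPKM (median 11.1). Its strain means ran from 7.97 in BXA-14/PgnJ (6.84, 7.84 and 9.23) to 17.3 in MA/MyJ (16.4, 17.2 and 18.3), with SM/J close behind at 16.5. Both ends of the order were picked on these values, so the distance between their mice is no test. The strain share was 0.422 (adjusted p = 1.3e-10, limma).

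Crym had the least stable level, from 0.550 to 24.7 FPKM around a median of 1.67. The highest strain mean, 9.61 in BXD-40/TyJ, came from mice at 1.32, 2.82 and 24.7, so that 1 mouse set it. The strain share was 0.0991 and the gene was not called (adjusted p = 0.063, limma). It was called at adjusted p = 0.044 without that mouse, 0.048 without the BXD-12/TyJ mouse and 0.039 with a pseudocount of 0.1.

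Thra was the most abundant of the 7 genes on this length-corrected scale, at 181 ± 16.7 FPKM (SD, n = 280), and the narrowest, with strain means from 162 in AXB-19/PgnJ (155.6, 164.5 and 164.9) to 223 in BXD85 (210.3, 221.8 and 236.4). The 1.38-fold span placed it at percentile 8.79 of all genes. However, the 3 highest strains, BXD85, BXHA1 and BXD70, all consisted of libraries that stood apart, and Thra averaged 215 ± 11.9 FPKM in those 18 mice against 179 ± 14.3 in the 262 others. The strain share was 0.377 (adjusted p = 2.5e-08) with and 0.222 (adjusted p = 0.0015, limma) without them.

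Thrb was found at 5.20 ± 0.736 FPKM (SD, n = 280). Strain means ran from 4.10 in CXB-3/ByJ (2.84, 4.70 and 4.76) to 6.69 in BXD75 (5.60, 6.49 and 7.98), and the mouse at 2.84 was the one with the next highest FPKM sum. BXD75 and the next strain, BXD-9/TyJ, were of the libraries that stood apart, and C57BLKS/J (6.53) was highest without them. The strain share was 0.304, and 0.267 without the 18 mice (adjusted p = 9.6e-05, limma). The only deposited Thrb transcript, fitted on its own, was not called (strain share 0.11, adjusted p = 0.13, limma).

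The response gene Klf9 had the largest strain share of the 7, 0.504 (adjusted p = 8.8e-15, limma). Strain means ran from 22.4 FPKM in BXD-19/TyJ (19.5, 21.4 and 26.4) to 48.7 in BXA-4/PgnJ (47.3, 48.9 and 49.8), a 2.17-fold span, and BXA-2/PgnJ was second at 47.1. BXD-19/TyJ was thus lowest for both Dio2 and Klf9.

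Hr had a strain share of 0.460 (adjusted p = 1.7e-12, limma), with strain means from 5.52 FPKM in BXHB2 (4.88, 5.49 and 6.19) to 19.4 in BXA-24/PgnJ (16.6 and 22.1). Both of its mice lay above those of the next strain, BXD70 (11.8, 13.1 and 13.3). Between neighbours in the order of strains, the step exceeded 2 standard errors of the difference at 1 of 98 places for Hr, that below BXA-24/PgnJ, and at 0 of 98 places for each of the other genes. The ranks of neighbouring strains were therefore not resolved.

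**Figure D1:**
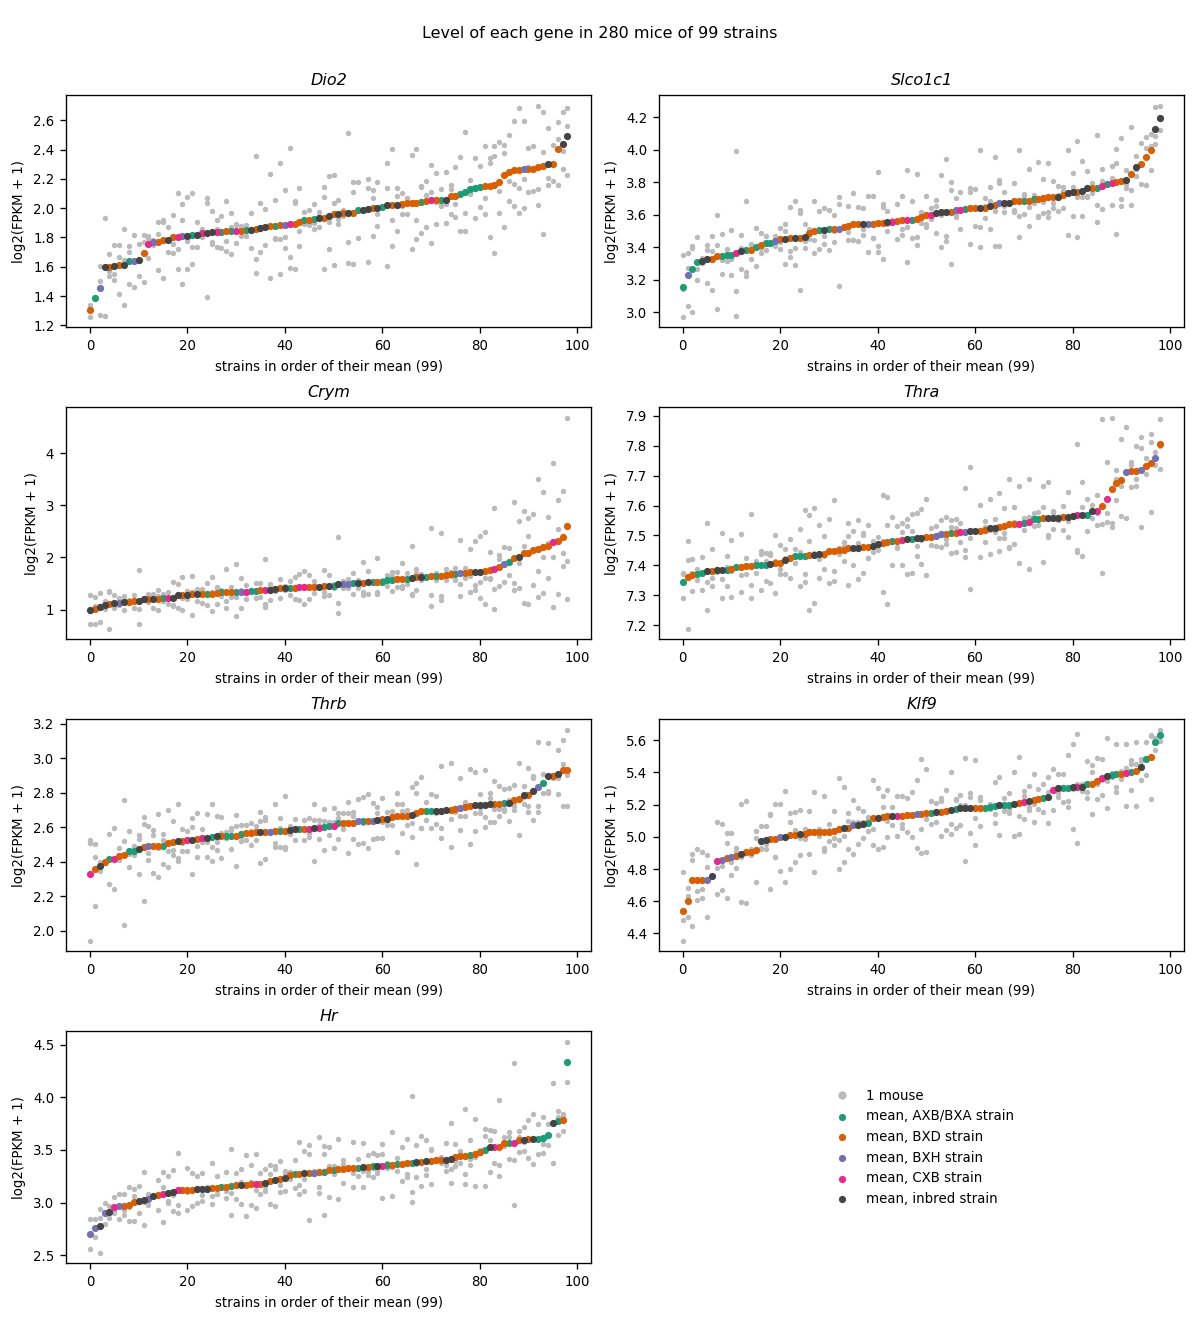
Levels of the 7 genes as log2(FPKM + 1) in 280 mice, with the 99 strains placed in order of their mean on the horizontal axis. Grey points are mice and coloured points are strain means by strain set; steps between neighbours were small apart from BXA-24/PgnJ at the top of Hr.

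BXA-24/PgnJ was also high for genes known to respond to glucocorticoids. Among 9 such genes, 4 had their highest strain mean of all 99 in BXA-24/PgnJ (Fkbp5, Zbtb16, Plin4 and Hif3a) and 6 were among the 2 highest. Plin4, which encodes a lipid droplet protein, was at 4.71 and 6.90 FPKM in its mice against a median strain of 0.741. Zbtb16, a transcription factor gene, was at 7.05 and 9.48 against 2.83. Sgk1 ranked 14, and Per1 and Pdk4 ranked 35 and 49 and did not stand out. The part of these genes in the level of Hr was not tested. BXA-24/PgnJ was picked for its high Hr and has 2 mice. How many of all genes have their highest mean in it was not counted, so these ranks have no background.

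Each set was then tested on its own strains within the same fit. Among the BXD strains all 7 genes were called, beside 64% of all genes, and among the inbred strains 5 were called, beside 47.4%. Among AXB/BXA strains 3 were called (Slco1c1, Klf9 and Hr), beside 22.1%, and that of Hr rested on BXA-24/PgnJ, without which its adjusted p was 0.13 (limma). Among BXH strains 2 were called (Dio2 and Thra), beside 18.4%, and Thra was lost without the 18 mice (adjusted p = 0.066, limma). Among CXB strains 2 were called (Klf9 and Hr), beside 16.4%. Klf9 was called in 4 of the 5 sets, and its strain means spanned 33.0 to 48.7 FPKM in AXB/BXA and 22.4 to 44.5 in BXD.

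Many recombinant inbred strains lay outside both parents. For Hr, 16 of 18 AXB/BXA strains had a mean above both C57BL/6J and A/J. Of 43 BXD strains, 27 had a mean above both C57BL/6J (8.40 FPKM) and DBA/2J (8.02), 11 below both and 5 between these close values, whereas of 6 BXH strains 5 lay below both parents and 1 above. Dio2 was above both parents in 23 of 43 BXD strains and in 0 of 6 BXH strains. These counts were not tested, and parent means rested on 3 mice each.

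The parent strains, and BALB/cJ as a relative of the CXB parent, were compared with C57BL/6J. Of 28 comparisons (7 genes in 4 strains that share the same C57BL/6J mice), 1 was called. Dio2 was at 3.81, 4.24 and 5.31 FPKM in C3H/HeJ and at 2.25, 2.44 and 2.66 in C57BL/6J, without overlap, a log2 difference of 0.65 ± 0.19 (SE, adjusted p = 0.017, limma). The background of called genes was 7.56% for C3H/HeJ. No gene of the 7 was called in DBA/2J (background 6.85%, 0 at an unadjusted p under 0.05), A/J (7.98%, 1 such gene) or BALB/cJ (6.75%, 1 such gene). The latter gene was Hr, at 4.75, 6.23 and 6.69 FPKM in BALB/cJ against 7.64, 8.73 and 8.84, a log2 difference of -0.46 ± 0.17 (adjusted p = 0.10, limma). Dio2 also lay above C57BL/6J without overlap in A/J (2.67, 2.89 and 3.53) and BALB/cJ (2.72, 2.80 and 3.17). Thra lay below it in C3H/HeJ (164.7, 170.8 and 174.5 against 179.2, 180.3 and 203.9). None of these was called, and the share of all genes without overlap was not counted.

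Tissue markers moved with the Dio2 contrast. The 6 pituitary genes summed to 44.9, 92.2 and 319.9 FPKM in the C3H/HeJ mice and to 3.20, 3.64 and 5.59 in the C57BL/6J mice, and the 5 thalamus genes to 220.8, 288 and 302.6 against 140.6, 204.4 and 219.2. With the mean levels of pituitary, choroid plexus and thalamus markers as covariates, the Dio2 difference was 0.47 (adjusted p = 0.071, limma). The contrast was also not called without the replicates numbered 1 or 2 in accession order (0.63 and 0.54).

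**Figure D2:**
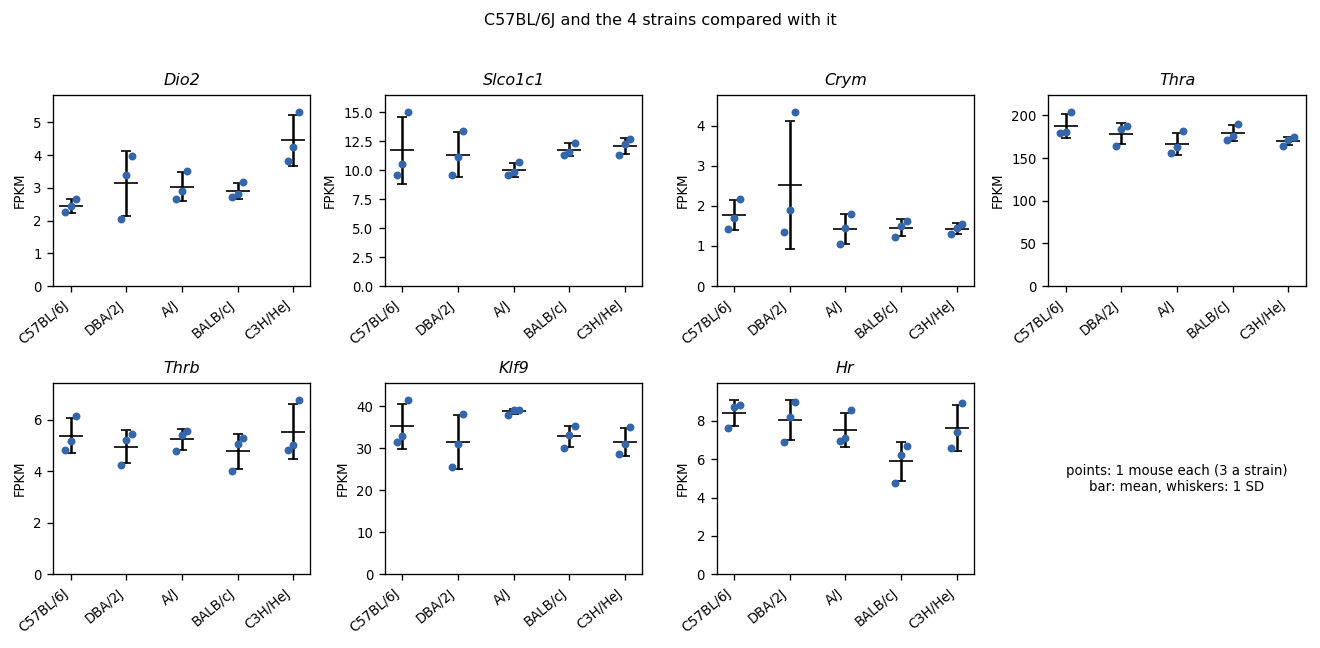
FPKM of the 7 genes in C57BL/6J and the 4 strains compared with it, with 1 point per mouse, the mean as a bar and whiskers of 1 SD (n = 3). For Dio2 the 3 C57BL/6J mice lie below those of C3H/HeJ, A/J and BALB/cJ. They lie above those of C3H/HeJ for Thra and of BALB/cJ for Hr. Only Dio2 in C3H/HeJ was called.

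Mice of a strain share a genome, so their deviations from the strain mean were used to ask which genes moved together without genetic differences. A pair was called when limma's slope test, adjusted over all genes, passed with each of the genes as predictor in turn. Within strains 10 of the 21 pairs were called (6 positive and 4 negative), and between the 99 strain means 3 pairs were called (2 positive and 1 negative). With 1 of the 7 genes as predictor, 5.26% (Slco1c1) to 32.4% (Thra) of all genes rose within strains. The share that fell was 4.97% (Hr) to 31.9% (Thrb). Between strains 1.13% (Slco1c1) to 11.5% (Thra) rose and 0.405% (Slco1c1) to 6.89% (Klf9) fell. Pairs with a receptor thus had a high background within strains. The 280 mice share strains and dissections, so r values describe these mice.

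Dio2 and Klf9 were the closest pair within strains (Pearson's r = 0.63, Spearman's rho = 0.62, 280 mice, adjusted p = 2.1e-17, limma), and Klf9 had the highest r with Dio2 of all genes. It was 0.68 among BXD, 0.51 among AXB/BXA and 0.63 among inbred mice, 0.64 without the 18 mice and 0.54 with the 3 marker covariates. Over all alternatives it lay between 0.54 and 0.68 and was called in each. Between strains r was 0.27, which passed with Klf9 but not with Dio2 as predictor and not at all without the 18 mice. It was 0.45 among BXD, 0.61 among AXB/BXA and -0.05 among inbred strains, differences that were not tested.

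Hr joined this pair. Klf9 and Hr had r = 0.44 within strains (rho = 0.38, adjusted p = 2.2e-08, limma) and r = 0.51 between strains (rho = 0.45, adjusted p = 8.5e-06, limma). Leaving out the 2 most extreme strains for Klf9 gave 0.48, and it was 0.39 with the marker covariates, the only between-strain pair still called. Dio2 and Hr had r = 0.40 within and 0.30 between strains, and the latter was not called without the 18 mice (0.29) or with the covariates (0.14).

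**Figure D3:**
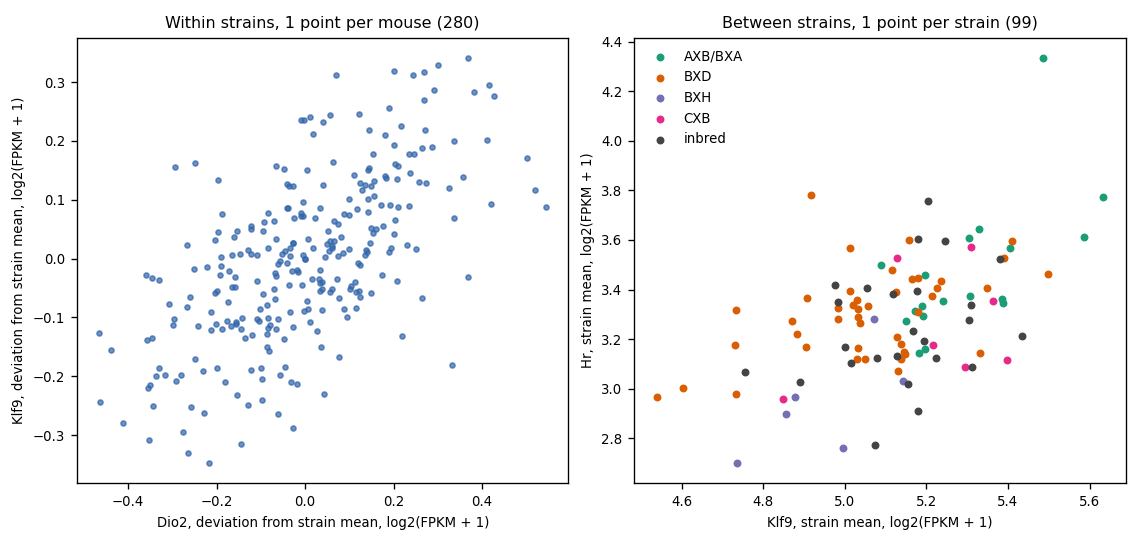
Left, deviation of Dio2 and of Klf9 from the strain mean of each mouse (log2 scale, 280 mice, r = 0.63). Right, strain means of Klf9 and Hr (log2 scale, 99 strains coloured by set, r = 0.51), where BXA-24/PgnJ is the point highest in Hr.

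Thra moved against Dio2 (r = -0.41), Klf9 (-0.39) and Slco1c1 (-0.23) within strains and with Crym (0.31), whereas its r with Hr was -0.05 (adjusted p = 0.61, limma). The call with Slco1c1 was lost without the BXD-12/TyJ mouse (-0.21). Between strains Dio2 and Thra had r = -0.35 (adjusted p = 0.013, limma), and -0.25 and not called with the covariates. Without the 18 mice it was -0.43. Thra was then also called between strains with Crym (0.40) and with Klf9 (-0.36). With all mice these pairs had r = 0.23 and -0.24 and were not called. These values depended on how mice were scaled to each other. After quantile normalization the within-strain r of Thra was -0.27 with Dio2, -0.15 with Klf9, -0.10 with Slco1c1 and 0.12 with Crym. Thra and Thrb turned from r = -0.20 (adjusted p = 0.016, limma) to 0.22, and the pair was not called without the BXD-12/TyJ mouse (r = -0.15) or without it and the CXB-3/ByJ mouse (-0.10). No direction can be given for the receptors. Slco1c1 had r = 0.30 with Klf9 and 0.24 with Dio2 within strains, but 0.11 and 0.13 and not called with the covariates.

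**Figure D4:**
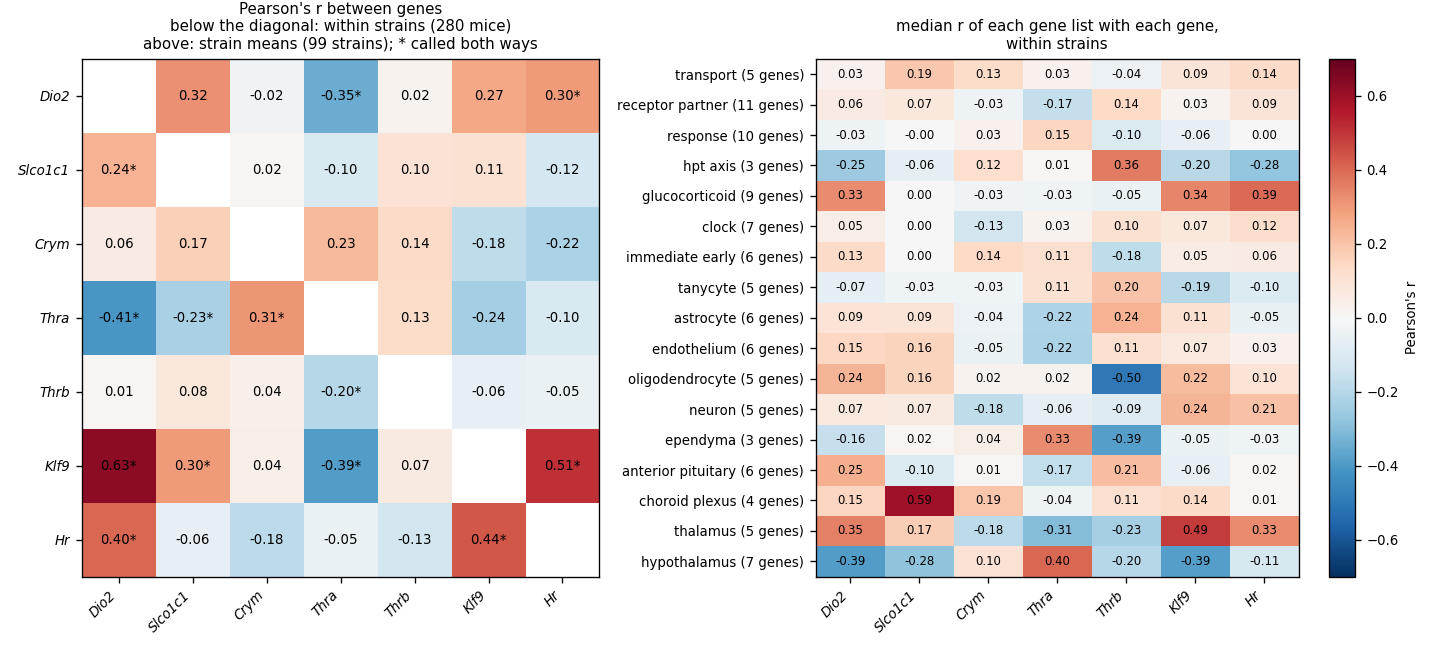
Left, Pearson's r between the 7 genes, within strains below the diagonal (280 mice) and over strain means above it (99 strains), with an asterisk on pairs called with both genes as predictor. Right, the median within-strain r of each gene list with each of the 7 genes; Klf9 and Hr share positive medians for the glucocorticoid and thalamus lists.

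Glucocorticoid response genes rose with the Dio2, Klf9 and Hr group. Of 9 such genes, 8 rose with Klf9 within strains and 8 between (medians r = 0.34 and 0.42), beside a background of 16% and 8.5% of all genes. With Hr, 8 rose within and 8 between (0.39 and 0.47), beside 9.13% and 5.28%. With Dio2, 7 rose within and 5 between (0.33 and 0.31), beside 12.7% and 4.17%. None of the 9 fell with these genes, where 16.1% and 6.89% of all genes fell with Klf9, 4.97% and 2.11% with Hr, and 10.8% and 3.89% with Dio2. With the marker covariates the counts were 8, 8 and 8 within and 7, 8 and 2 between strains for Klf9, Hr and Dio2. Leaving out the replicates numbered 1 lowered the within-strain counts to 2, 4 and 3. Plin4 had the highest r with Hr within strains (0.71) and Hif3a between strains (0.61).

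Markers of thalamus and hypothalamus moved in opposite directions with Dio2 and Klf9. All 5 thalamus genes rose with Dio2, Klf9 and Hr, within and between strains (medians 0.33 to 0.52), and with the covariates, which hold these genes, 1, 1 and 0 rose within strains. Without the replicates numbered 1, the within-strain counts were 1 with Dio2, 5 with Klf9 and 0 with Hr. All 5 fell with Thra and with Thrb within strains, beside 25% and 31.9% of all genes, but 0 to 5 and 2 to 5 did so over the alternatives. Of the 7 hypothalamus genes, 5 fell with Dio2, 5 with Klf9 and 1 with Hr within strains (medians -0.39, -0.39 and -0.11). With the covariates, which do not hold these genes, 6 fell with Dio2, 6 with Klf9 and 0 with Hr (-0.29, -0.31 and -0.01). With Thra 6 rose (0.40), beside 32.4% of all genes and with 2 to 6 over the alternatives, and 6 rose with the covariates (0.31). With Thrb 5 fell (-0.20), beside 31.9% of all genes and with 0 to 5 over the alternatives, and 5 fell with the covariates (-0.28). All 6 pituitary genes rose with Dio2 and with Thrb within strains (0.25 and 0.21), and 0 and 0 with the covariates, which hold them too. Of 6 astrocyte genes 3 rose with Dio2 within strains (median 0.09), as did 3 of 5 oligodendrocyte genes (0.24), whereas of 5 tanycyte genes none rose and 1 fell. Of 7 clock genes 2 rose with Dio2, as did 2 of 6 immediate early genes. The part of dissection in the covariation was tested only through the marker covariates given above.

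All 4 choroid plexus genes rose with Slco1c1 within and between strains (medians 0.59 and 0.48), beside backgrounds of 5.26% and 1.13% rising, and 5.12% and 0.405% falling. With the covariates, which hold these genes, 1 and 0 rose. Of the hypothalamus genes, 5 of 7 fell with Slco1c1 within strains (median -0.28) and 2 of 5 thalamus genes rose (0.17). With the covariates 4 of these 7 hypothalamus genes fell (-0.25), and 0 to 5 fell over the alternatives. The highest r within strains was that of Enpp2 (0.73), which encodes autotaxin and is abundant in choroid plexus, and it was 0.40 with the covariates. The endothelial list gave 3 of 6 genes rising within strains and 1 between.

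The genes with the highest r with Crym were Itpka (0.72), Kcnj4 (0.71) and Nrgn (0.67) between strains, and Icam5 (0.73) was among the 3 highest within. Of 5 general neuron genes, 0 rose and 2 fell with Crym within strains (median -0.18). Nrgn, which encodes neurogranin, is itself a T3 response gene of the forebrain. Within strains 11.8% of all genes rose and 11.1% fell with Crym, and between strains 2.97% and 3.15%. Of 10 response genes measured, 3 rose and 2 fell with Crym within strains.

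The receptors moved with large parts of the table. Within strains 32.4% of genes rose and 25% fell with Thra, and 26.2% rose and 31.9% fell with Thrb, and between strains the figures were 11.5% and 2.18% for Thra and 10.5% and 4.45% for Thrb. Of 11 receptor partners (retinoid X receptors, corepressors and coactivators), 5 rose and 6 fell with Thra and 5 rose and 2 fell with Thrb within strains. Over the alternatives 4 to 6 rose and 1 to 6 fell with Thra, and 4 to 6 rose and 1 to 3 fell with Thrb. Of 5 oligodendrocyte genes, 4 fell with Thrb (median -0.50), as did all 3 ependymal genes. As given above, r values of the receptors depended on how mice were scaled. The counts over all genes and for the oligodendrocyte and ependymal lists are those before quantile normalization. Near Thrb, Nkiras1 had r = -0.53 between strains (adjusted p = 3e-05, limma), the largest of 5 genes starting within 1 Mb.

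The other genes of the pathway were counted from fixed lists. Of 5 transporter or carrier genes measured, 5 were called between strains, as were 8 of 11 receptor partners, 10 of 10 response genes and 2 of 3 genes of the pituitary-thyroid axis, beside the 74.9% of all genes. Thrsp, a lipogenic T3 response gene, had a strain share of 0.501 with strain means of 4.37 to 13.0 FPKM. Trh, the releasing hormone at the head of the axis, ran from 27.2 to 74.9 FPKM (strain share 0.283). Response genes gave mixed directions, with 3 rising and 3 falling with Dio2, and 3 rising and 2 falling with Klf9, of 10 within strains. Slc16a10, Dio1, Dio3, Cbr2 and Tshr were not analysed here.

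At the level of transcripts, 13 of the 23 deposited transcripts differed between strains, beside 45.9% of all transcripts. Without the 18 mice 5 were called, beside 25.7%. For transcript share (the fraction of the summed FPKM of a gene's transcripts), 10 of 20 were called, beside 37.4%, and 1 without the 18 mice, beside 17.3%. The 5 transcripts and the 1 share were also among those called with all mice, and the other calls were not made without the libraries that stood apart.

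Thra and Hr showed this split plainly. The Thra isoform TCONS_00054260, which is unannotated, was at 0 to 3.01 FPKM in the 18 mice and at 27.1 to 56.0 in the 262 others, without overlap. A partial Thra model, TCONS_00054268, averaged 50.9 FPKM against 7.06. For Hr the annotated transcript TCONS_00105175 held 96.5% of the summed FPKM in the 18 mice and 11.5% in the others, where 6 unannotated isoforms held the rest.

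The hormone-binding form was the lesser product of Thra. The annotated TRα2 transcript was at 118 ± 13.2 FPKM and that of TRα1 at 6.94 ± 1.75 in the 262 mice (SD). In the 18 they were at 142 ± 13.4 and 9.72 ± 1.97. The unannotated isoform TCONS_00054260, which is also of the TRα2 type, is left out of these levels and of the ratio below. It was almost confined to the 262 mice, as given above, so the TRα2 levels do not compare all TRα2-type signal between these groups. The ratio of TRα2 to TRα1 had a median of 16.7 in the 262 mice, from 8.28 to 1421 in the BXD-12/TyJ mouse and 234 in the CXB-3/ByJ mouse, and up to 58.7 in the others. The part of the last exon particular to TRα1 (706 bases) overlaps annotated exons of the antisense gene Nr1d1 over all 706. The last exon of TRα2 (850 bases) overlaps Nr1d1 exons over all 850, of which 263 are in annotated Nr1d1 exons. The libraries do not mark strand, so reads of the 2 genes cannot be told apart there. The correlation of TRα1 with Nr1d1 within strains was 0.02 over 280 mice.

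**Figure D5:**
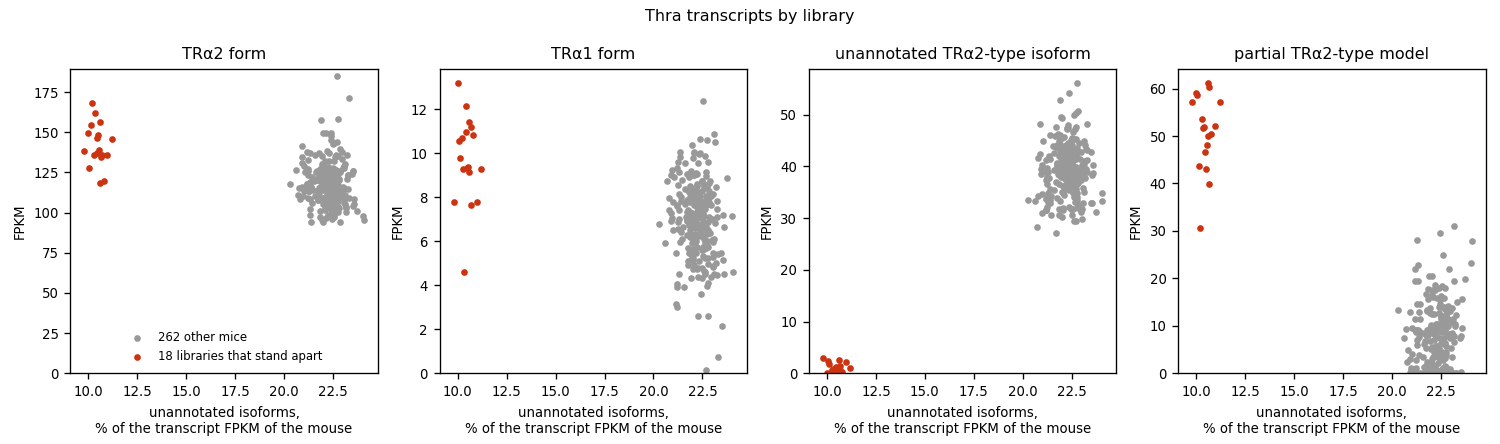
FPKM of 4 Thra transcripts in each mouse against the percentage of the transcript FPKM that unannotated isoforms hold in that mouse. The 18 libraries that stood apart (red) have little of the unannotated TRα2-type isoform and more of the partial model than the 262 other mice (grey).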

How the data were processed

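The authors deposited FPKM values per gene and transcript, which Cuffnorm 2.2.1 gave after alignment of the hypothalamus reads (STAR 2.3.1, build mm10) and assembly (Cufflinks 2.2.0), together with the merged assembly. The libraries were unstranded, and gene names came from the assembly. Strains came from the labels; 1 mouse whose title and label name different strains was left out. Values were transformed to log2(FPKM + 1) and fitted with limma 3.58.1 (R 4.3.3), with all strains in a single fit. Moderated F tests compared strains, contrasts compared parents, and slope tests with strain as a factor, or over strain means, gave covariation. P-values were adjusted by Benjamini-Hochberg over all genes or transcripts. The fits were also run on simulated data with normal noise. These data held no libraries that stood apart and no tissue differences, so the runs do not cover such effects. The 7 genes and the lists were chosen with earlier results of these data known. Genes named besides these were the 3 of highest r with each gene and the local gene within 1 Mb of largest r between strains. Mice of a strain were taken as separate animals, apart from 2 proportional columns of CXB-6/ByJ, which were averaged, and p-values measure the spread between these samples. Alternatives covered pseudocounts, low values, quantile normalization, left-out mice and marker covariates.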

Additional observations from a re-analysis of the deposited data

How the results depend on the processing

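Single results followed over 23 alternatives were those called with all mice, besides Crym between strains and Hr in BALB/cJ. Only these 2 could gain a call. Of 1118 comparisons, 971 kept direction and side of the threshold, 139 lost the call, 5 gained it, 2 moved and 1 reversed. Rank correlations, r by strain set and r without extreme strains had no test. They counted as kept when near the r of all mice or strains, and otherwise as moved. The reversed result was the r of Thra and Thrb within strains, at 0.22 after quantile normalization. Pairs not called with all mice were not followed, and Slco1c1 and Hr within strains (r = -0.23) were called with the covariates. Replicates were numbered in accession order, and leaving out those with the same number, in strains with more than 1 mouse, left 183 to 196 mice and gave 5 to 6 genes called between strains, 7 to 11 transcripts, 3 to 5 transcript shares, 6 to 15 calls within sets (19 with all mice), 0 to 1 parent contrasts, 5 to 6 pairs within and 4 to 6 between strains. Thra lost its call without replicate 2 (adjusted p = 0.17, limma). With marker covariates, 0 parent contrasts were called by limma (3 of 28 at an unadjusted p under 0.05) and 1 pair between strains. Alternatives chosen after seeing the data left out the 18 libraries, which gave 5 transcripts and 1 share, and also the BXD-12/TyJ mouse, which gave 4 and 1. Others took both CXB-6/ByJ columns as separate mice, which gave 14 transcripts and ended or added no call of the 7 genes or their pairs, or left out the 2 mice with the largest FPKM sums. The cause of these changes was not tested. No paired analysis was possible because the labels give no replicate numbers. The depth of each library was not used here, and 2 or 3 mice per strain limit the ranks of strains.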

Other observations

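The mouse whose title names AXB8 and whose strain label names AXB-6/PgnJ was put in no comparison. It had 3.17 FPKM of Dio2, 11.1 of Slco1c1, 1.70 of Crym, 174 of Thra, 5.76 of Thrb, 39.0 of Klf9 and 8.70 of Hr.

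Near Klf9, Apba1 had r = 0.44 with it between strains (adjusted p = 0.00022, limma), the largest of 8 genes starting within 1 Mb. Near Hr, Lgi3 had r = 0.49 (adjusted p = 9.5e-05, limma), the largest of 17.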
